A study of Schmidtea mediterranea with 60 samples.

Results

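The comparison described here set wounds of bmp4 RNAi planarians against control wounds at 16 hours post-amputation (hpa). Its members were the 5 libraries labelled bmp4 RNAi and the 5 control libraries of that time, chosen by their labels, 10 of 60 libraries in the series. Polyadenylated RNA had been sequenced from anterior-facing wounds of tail fragments of Schmidtea mediterranea, a freshwater flatworm, in 12 groups given by RNAi condition and by time (0, 3, 6, 16, 24 or 48 hpa). All animals belonged to the clonal asexual strain CIW4 and were wild type. They ate liver mixed with double-stranded RNA at 4 feedings and were cut 7 days after the last of these. The RNA matched bmp4 in the treated group and the nematode gene unc-22 in the control group, so both groups had been fed double-stranded RNA. Each replicate pooled 5 wounds and is a pool, not a single animal, and clonal animals carry no genetic variation between replicates. The labels do not say whether the pools came from separate RNAi experiments, so the p-values measure the spread between these pools.

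Bmp4 belongs to the bone morphogenetic proteins, secreted ligands whose family acts through cell-surface receptors and Smad proteins and is bound and blocked outside the cell by proteins such as Noggin. In planarians Bmp signalling maintains dorsal identity, and animals that lose it shift dorsal tissue, including epidermis, to ventral identity. A planarian wound first switches on an early set of wound-induced genes in epidermis, muscle and stem cells (neoblasts). Fragments that lack tissue later sustain wound-induced expression and accumulate neoblasts at the wound. The comparison asked which transcripts at the wound differed after bmp4 RNAi at 16 hpa. In bulk RNA fewer cells of a type and less RNA per cell cannot be told apart.

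The 10 libraries held 13.3 to 21.7 M counts, and the 60 libraries of the series 5.92 to 23.9 M (M, the SI prefix mega). Values are CPM, that is, counts per M counts of the effective library size. The effective size uses factors from the trimmed mean of M-values (TMM), which were 0.959 to 0.998 in control libraries and 1.01 to 1.04 in the libraries labelled bmp4 RNAi. The share of counts on 8 mitochondrial transcripts was 0.281 to 0.366% in control libraries and 0.256 to 0.374% in the libraries labelled bmp4 RNAi, and these ranges overlapped. Within a group Pearson's r of log2 CPM across transcripts was 0.9851 to 0.9919. For pairs within a group chi-square per degree of freedom, with counts scaled by library totals, was 3.39 or more, above what counting error alone gives. Repeats of the same RNA were not measured as a reference. Names other than bmp4 and equinox are those of the best human (or mouse) protein match in the study's annotation table. The copy used listed 1200 transcripts and named 579 of the 18510 tested. All members of the gene lists below have IDs that begin with the same digits, so the copy appears to be a slice by ID, not by function. Ranks among named transcripts and the lists cover that slice alone. A name stands for a planarian transcript with that best match, and close paralogues can share it.

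The targeted transcript was examined first. The bmp4 transcript (dd_Smed_v6_17402_0_1) measured 3.19, 4.93, 2.57, 3.17 and 3.68 CPM in control replicates 1 to 5. Replicates 1 to 5 of the libraries labelled bmp4 RNAi measured 0.185, 0.72, 13.2, 2.99 and 5.19 CPM. Replicates 1 and 2 of the treated libraries lay below every control library, replicates 3 and 5 above, and replicate 4 within the control range. Fed bmp4 double-stranded RNA and the animals' own bmp4 transcript cannot be told apart in these counts. The log2 fold change was 0.35 (SE 0.524, edgeR adjusted p = 0.671), and the mean difference in log2(CPM + 1) was -0.25 (exact two-sided permutation p = 0.746, adjusted p = 0.746 over 2 tests). Without replicate 3 of the treated libraries the log2 fold change was -0.69 (edgeR adjusted p = 0.419). Because the target was not lower in every treated library, these are called the libraries labelled bmp4 RNAi, and each direction given here rests on that label.

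The equinox transcript (dd_Smed_v6_20318_0_1) encodes a predicted secreted protein with thrombospondin type 1 and EGF domains, made in the epidermis over a wound. Its first 50 codons, at positions 43 to 192 of the transcript as listed in the study's sequence table, are shown because equinox, the gene the study is about, was lower in all 5 libraries labelled bmp4 RNAi, and the capitals mark the start codon.
equinox: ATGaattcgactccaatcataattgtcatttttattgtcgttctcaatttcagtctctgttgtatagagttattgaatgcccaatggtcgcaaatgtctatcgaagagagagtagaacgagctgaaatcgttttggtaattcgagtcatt
Control replicates 1 to 5 held 10.5, 15.1, 13.9, 14.4 and 11.7 CPM of equinox. The libraries labelled bmp4 RNAi held 3.33, 3.14, 3.71, 3.96 and 4.55 CPM, all below the lowest control library. Equinox was 3.52-fold lower, with a log2 fold change of -1.81 (SE 0.142 and, by edgeR, adjusted p = 7.14e-16). A two-sided exact permutation test gave p = 0.00794, which 5 against 5 libraries cannot go below (adjusted p = 0.0159). Replicate 3, with the highest bmp4 of the treated libraries, held 3.71 CPM of equinox, the median of the 5.

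**Figure D1:**
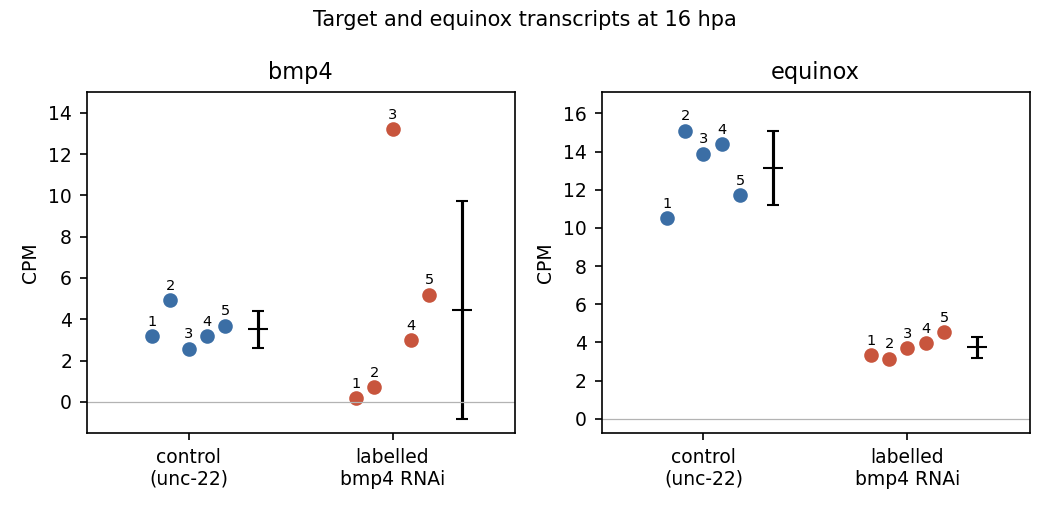
CPM of bmp4 (left) and equinox (right) in each library at 16 hpa. Points are libraries numbered by replicate, and bars are the mean ± SD (n = 5). The treated libraries spread from 0.185 to 13.2 CPM for bmp4 and sit between 3.14 and 4.55 CPM for equinox, where all control libraries are at 10.5 or above.

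Across the 18510 transcripts with enough counts for a test, edgeR called 3560 at an adjusted p under 0.05, which was 19.2% of those tested. Of these, 1791 were higher (9.68%) after the treatment named in the label and 1769 lower (9.56%). Most differences were small: the median absolute log2 fold change of the called transcripts was 0.44, and 2385 of them (67.0%) differed by less than 1.5-fold. A difference of at least 2-fold was called for 440 transcripts, 223 higher (1.2%) and 217 lower (1.17%), together 2.38% of those tested. At least 8-fold differences were called for 32 transcripts, 13 higher and 19 lower. The CPM ranges of the 5 and 5 libraries did not overlap for 3080 transcripts (16.6% of those tested), and 2447 of these were called. The even split of calls depended on scaling. With library totals in place of TMM factors, 65.8% of 3697 calls were higher, against 50.3% with TMM factors, and the median log2 fold change of all transcripts moved from 0.015 to 0.077.

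The transcripts named first are the 12 lowest and 12 highest log2 fold changes among called transcripts that carry a homologue name and whose ranges did not overlap. Since this rule used the 16 hpa values, the values that follow describe the transcripts and the absence of overlap is not a finding.

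**Figure D2:**
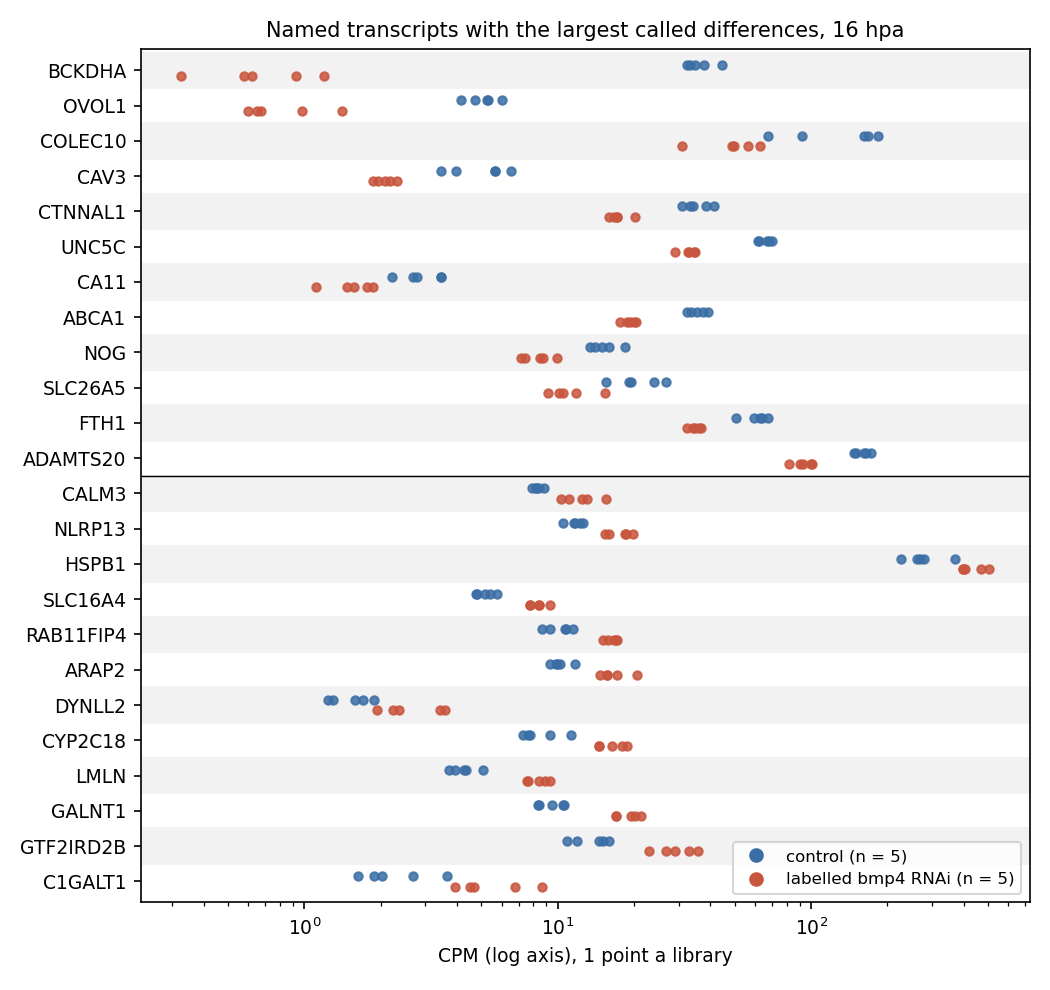
CPM on a log axis of the 24 named transcripts with the largest called differences at 16 hpa, lower ones above the line and higher ones below it. Each point is a library, control in blue and labelled bmp4 RNAi in red (n = 5 each). The BCKDHA match shows the widest gap, from 32.5 CPM or more in control to 1.2 CPM or less in the treated libraries.

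The largest named fall was that of dd_Smed_v6_10732_0_1, whose best match is BCKDHA, a subunit of the enzyme complex that breaks down branched-chain amino acids. It measured 44.3, 32.5, 33.4, 37.6 and 34.7 CPM in control libraries and 0.925, 0.327, 0.619, 1.2 and 0.577 CPM in treated libraries. The transcript was nearly lost in all 5 treated libraries, with a log2 fold change of -5.63 (SE 0.285 and, by edgeR, adjusted p = 3.58e-22). The OVOL1 match, a zinc-finger transcription factor whose mammalian counterpart acts in epidermal differentiation, measured 6.05, 5.29, 4.71, 4.16 and 5.25 CPM in control. The treated libraries held 0.648, 0.982, 0.675, 0.598 and 1.41 CPM, a 5.9-fold fall (log2 fold change -2.56, SE 0.218, edgeR adjusted p = 2.02e-14). Both transcripts stood clear of the control range in every treated library, which the rule that chose them required. Equinox was not chosen by that rule.

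Several of the named falls encode proteins of the cell surface or the space outside cells. The NOG match, a homologue of the secreted Bmp antagonist Noggin, fell from 16.0, 14.9, 14.0, 18.5 and 13.4 CPM in control to 7.45, 8.51, 7.15, 9.94 and 8.72 CPM (log2 fold change -0.89, SE 0.128, edgeR adjusted p = 2.32e-07). The ADAMTS20 match, a secreted metalloprotease of the extracellular matrix, measured 148 to 172 CPM in control and 81.9 to 101 CPM in the treated libraries, with a log2 fold change of -0.77 (SE 0.0816). UNC5C, a netrin receptor, measured 61.6 to 69.8 CPM in control and 29.0 to 34.9 CPM in the treated libraries, with a log2 fold change of -1.0 (SE 0.0833). The C-type lectin COLEC10 was the most variable of the falls, at 67.4 to 184 CPM in control and 31.0 to 63.1 CPM in the treated libraries (log2 fold change -1.44, SE 0.509, edgeR adjusted p = 0.0403). Leaving out any library other than control replicates 2 and 3 ended the COLEC10 call, as did the score of the second block of co-varying transcripts described at the end of these results (log2 fold change -0.75, edgeR adjusted p = 0.28).

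The other 6 named falls were of varied kinds. CAV3, the caveolin of vertebrate muscle, fell from a mean of 5.04 ± 1.29 to 2.08 ± 0.173 CPM (SD, n = 5), with a log2 fold change of -1.27. CTNNAL1, a protein of the vinculin and catenin family, measured 31.0 to 41.2 CPM in control and 16.0 to 20.1 CPM in the treated libraries (log2 fold change -1.03, SE 0.0991). ABCA1, a lipid exporter, went from a mean of 35.7 ± 2.79 to 19.2 ± 1.06 CPM. SLC26A5, an anion transporter family member, had treated values from 9.12 to 15.3 CPM, and its lowest control library was at 15.5 CPM. CA11, a carbonic anhydrase-related protein, measured 2.22 to 3.47 CPM in control and 1.11 to 1.86 CPM in the treated libraries. FTH1, the iron-storage subunit ferritin heavy chain, measured 50.3 to 67.5 CPM in control and 32.5 to 36.7 CPM in the treated libraries (log2 fold change -0.80, SE 0.0913). The edgeR adjusted p of these 6 falls was 0.00104 or lower.

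Among the named rises, a pair of glycosyltransferases stood among the 3 largest. C1GALT1, the enzyme that extends O-linked glycans, measured 1.63, 2.68, 3.67, 2.03 and 1.89 CPM in control and 3.93, 8.65, 6.75, 4.49 and 4.68 CPM in treated libraries (log2 fold change 1.25, SE 0.232, edgeR adjusted p = 4.33e-05). GALNT1, which starts such glycans, measured 8.39 to 10.6 CPM in control and 17.0 to 21.4 CPM in the treated libraries (log2 fold change 1.0, SE 0.109, edgeR adjusted p = 8.65e-11). The ranges were close together for C1GALT1, with its highest control library at 3.67 and its lowest treated library at 3.93 CPM, and well apart for GALNT1.

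The GTF2IRD2B match, named for a human gene that carries a transposase-derived part, rose from 15.1, 10.9, 11.9, 14.6 and 15.9 CPM to 35.9, 28.9, 22.9, 33 and 26.7 CPM (log2 fold change 1.11, SE 0.15, edgeR adjusted p = 6.9e-08). LMLN, a leishmanolysin-like metallopeptidase, rose from 5.07, 4.26, 3.72, 3.92 and 4.33 CPM to 7.54, 7.60, 9.34, 8.90 and 8.40 CPM (log2 fold change 0.97, SE 0.131, edgeR adjusted p = 3.88e-08). CYP2C18, a cytochrome P450 enzyme, went from 7.28 to 11.3 CPM in control to 14.6 to 18.7 CPM in the treated libraries, with a log2 fold change of 0.91 (SE 0.13). HSPB1, a small heat shock protein and the most abundant named rise, measured 227 to 370 CPM in control and 399 CPM or more in the treated libraries (log2 fold change 0.63, SE 0.138). All libraries labelled bmp4 RNAi lay above all control libraries for each of these 4 transcripts, as the rule that chose them required.

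Smaller named rises were those of the vesicle-traffic protein RAB11FIP4 (log2 fold change 0.69), the GTPase regulator ARAP2 (0.72), the monocarboxylate transporter family member SLC16A4 (dd_Smed_v6_10366_0_1, 0.68), the leucine-rich repeat protein NLRP13 (0.59) and calmodulin CALM3 (0.58). Their edgeR adjusted p ranged from 2.75e-06 to 0.00109. DYNLL2, a dynein light chain, rested on few reads, with 1.24 to 1.89 CPM in control and 1.94 to 3.60 CPM in the treated libraries (log2 fold change 0.82, SE 0.265, edgeR adjusted p = 0.0218). The DYNLL2 call was lost without control replicate 1 or 5 or treated replicate 1 or 3 (edgeR adjusted p = 0.0577, 0.0563, 0.0624 and 0.0855) and with the second block score in the fit (0.135).

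Gene groups were then read from 16 lists of homologue names, which hold only transcripts of the annotated slice. Named and tested transcripts as a whole were called somewhat more often (24.7%, with 13.5% higher and 11.2% lower) than all transcripts (19.2%), which sets the level for the small lists.

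**Figure D3:**
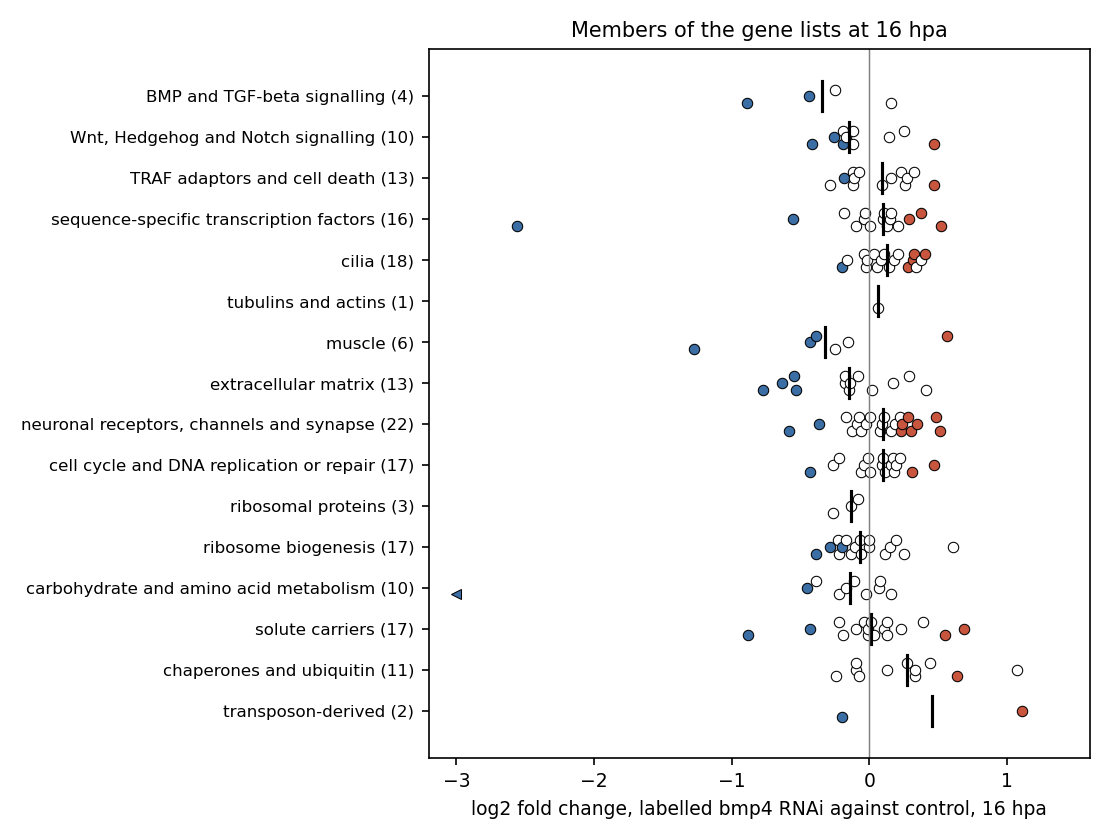
log2 fold change at 16 hpa of each tested member of the 16 lists, with the number tested in parentheses. Filled points were called, in red where higher and in blue where lower in the libraries labelled bmp4 RNAi, open points were not called, and black lines are list medians. BCKDHA, at -5.63, lies past the left edge and is drawn as a triangle.

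In the annotated slice Bmp and TGF-beta signalling held 4 tested members, none of them a ligand or receptor. The Noggin homologue described above and WFIKKN2, a secreted protease inhibitor whose mammalian counterpart binds TGF-beta family ligands, were lower. WFIKKN2 measured 41.9, 32.6, 30.3, 39.1 and 37.0 CPM in control and 21.1, 25.5, 29.8, 30.9 and 26.5 CPM in the treated libraries, where replicate 4 reached into the control range (log2 fold change -0.44, SE 0.107, edgeR adjusted p = 0.00204). A second NOG match, dd_Smed_v6_10386_0_1, had a log2 fold change of -0.25 (SE 0.109 and, by edgeR, adjusted p = 0.0966), and SKI, a repressor of Smad-driven transcription, one of 0.16, and neither was called. The median of the 4 was -0.34, against 0.015 over all transcripts tested.

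In the Wnt, Hedgehog and Notch list 1 of 10 tested members was higher and 3 were lower. The Notch ligand JAG1 rose from 6.10 to 8.0 CPM in control to 8.66 to 11.9 CPM in the treated libraries (log2 fold change 0.47, SE 0.109, edgeR adjusted p = 0.00111). The matches of the receptor NOTCH1, the ligand-activating ubiquitin ligase MIB1 and the co-repressor CTBP2 were lower, with log2 fold changes of -0.26, -0.42 and -0.19. The annotated domains of the NOTCH1 match were chiefly of EGF type, with no Notch domain among them. For NOTCH1 replicate 5 of the treated libraries, at 27.9 CPM, lay inside the control range of 26.4 to 28.9 CPM, and for MIB1 control replicate 2, at 7.48 CPM, lay apart from the other control libraries. The NOTCH1 call was lost with library totals in place of TMM factors (edgeR adjusted p = 0.0996) and without treated replicate 1, 2 or 3 (0.0563, 0.086 and 0.0711). The MIB1 call was lost with the score of the first block of co-varying transcripts described with the matrix list (0.105) and without treated replicate 3 (0.0508). Without replicate 3 of both groups, a fit chosen after the data had been seen, the list held 1 higher call, JAG1, and 0 lower calls.

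Of 16 sequence-specific transcription factors, 3 were higher and 2 lower (18.8% and 12.5%, against 13.5% and 11.2% of named transcripts). Beside OVOL1, PAX5, a paired-domain factor, fell from 20.9, 18.9, 21.5, 20.4 and 19.3 CPM to 15, 10.7, 14.5, 16.4 and 12 CPM (log2 fold change -0.56, SE 0.123, edgeR adjusted p = 0.000565). FOXJ1, the regulator of motile cilia genes, was higher with a log2 fold change of 0.37, and the zinc-finger protein RREB1 with 0.29. OSR1, another zinc-finger factor, was at 0.52 (SE 0.186, edgeR adjusted p = 0.0416), with overlapping ranges, and lost its call with either block score in the fit and when any library other than control replicate 3 or treated replicate 4 was left out (edgeR adjusted p = 0.0592 to 0.134). The list median was 0.10.

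The muscle and matrix lists held more lower than higher members. In the muscle list 3 of 6 tested members were lower, CAV3, the actin cross-linker ACTN2 (log2 fold change -0.43) and KY (-0.39), and the LIM protein FHL3 was higher (0.57). ACTN2 measured 6.87 to 9.74 CPM in control and 4.10 to 7.20 CPM in the treated libraries, and it was not called without treated replicate 5 (edgeR adjusted p = 0.0691). The FHL3 call was lost with the first block score (log2 fold change 0.36, edgeR adjusted p = 0.22), without control replicate 4 (0.0924) and without treated replicate 2, 3 or 5 (0.11, 0.0625 and 0.0626). LDB3 and the calcium pump ATP2A2 had values of -0.25 and -0.15 and were not called. The extracellular matrix list had 4 of 13 members lower and 0 higher (9.56% and 9.68% of all transcripts). HSPG2, the basement membrane proteoglycan perlecan, was the most abundant of the named transcripts, at 2360, 2060, 2320, 2260 and 2240 CPM in control and 1550, 1500, 1490, 1800 and 1360 CPM in the treated libraries. Its highest treated library lay below its lowest control library (log2 fold change -0.55, SE 0.0923, edgeR adjusted p = 6.83e-06). COL2A1, a fibrillar collagen, measured 1140 to 1620 CPM in control and 707 to 1140 CPM in the treated libraries (log2 fold change -0.63, SE 0.145, edgeR adjusted p = 0.00107), and the matrix glycoprotein SPARCL1 was at -0.53. COL2A1 belonged to the first block, 978 transcripts that varied together within groups. Of these 332 (33.9%) were called, all lower, where 9.56% of all transcripts were called lower. The block score did not overlap between control and treated libraries, so a fit with it also removes part of their difference. A call lost in such a fit therefore does not show that the difference was absent. With the score of that block in the fit the log2 fold change of COL2A1 was -0.29 and that of HSPG2 was -0.41, and both stayed called (edgeR adjusted p = 0.00021 and 0.000119).

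The lists for nerve cells and ciliated cells held more higher than lower members. Among 22 tested neuronal receptors, channels and synapse proteins, 7 were higher and 2 lower (31.8% and 9.09%, against 9.68% and 9.56% of all transcripts). KCNN2, a calcium-activated potassium channel, rose from 7.05 to 8.32 CPM in control to 9.42 to 12.5 CPM in the treated libraries (log2 fold change 0.51, SE 0.117, edgeR adjusted p = 0.000891). The nicotinic acetylcholine receptor subunit CHRNB3 rose from 15.9 to 18.5 CPM to 22.2 to 25.8 CPM (log2 fold change 0.48, SE 0.0859). The glutamate receptor GRM3, the glycine receptor GLRA2, the scaffold SHANK3, the peptide receptor NPY2R and the vesicular glutamate transporter SLC17A6 were higher by 0.35, 0.30, 0.28, 0.24 and 0.23 in log2 fold change. Lower members were the calcium channel subunit CACNA2D3, at 26.8 to 31.6 CPM in control and 18.6 to 20.7 CPM in the treated libraries (log2 fold change -0.59), and the AMPA receptor subunit GRIA4 (-0.37). The median of the list, 0.10, was nearer to that of all transcripts than these counts.

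Cilia genes were higher in 4 of 18 tested members and lower in 1 (22.2% and 5.56%, against 13.5% and 11.2% of named transcripts). The axonemal dynein heavy chain DNAH10 measured 36, 45.1, 41.3, 40.6 and 39.4 CPM in control and 50.1, 56.0, 55.8, 51.4 and 55.1 CPM in the treated libraries (log2 fold change 0.41, SE 0.108, edgeR adjusted p = 0.00517). CFAP43, a protein of motile cilia, rose from 39.9 to 48.8 CPM to 51.4 to 58.2 CPM (log2 fold change 0.32). The transport protein IFT172 was at 0.28, and the kinase NEK8 at -0.20. With the score of the 978-transcript block in the fit, DNAH10 and CFAP43 were no longer called, at log2 fold changes of 0.28 and 0.25.

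Growth-related lists changed little. The cell cycle and DNA replication or repair list, the nearest stand-in here for dividing cells, had a median of 0.10. Of its 17 tested members 2 were higher and 1 lower (11.8% and 5.88%, against 13.5% and 11.2% of named transcripts). The spindle protein SPICE1 and the repair nuclease ERCC5 were at 0.47 and 0.31. WDHD1, a replication factor, measured 29.7 to 34.5 CPM in control and 19.9 to 27.7 CPM in the treated libraries (log2 fold change -0.43, edgeR adjusted p = 0.0286). Ribosome biogenesis had 3 of 17 members lower and 0 higher (17.6% lower, against 11.2% of named transcripts). Its falls were those of NOL10 (-0.39), the helicase DDX31 (-0.28) and the ATPase NVL (-0.20). None of the 3 ribosomal proteins tested was called, though RPS27L, at 202 to 253 CPM in control and 180 to 198 CPM in the treated libraries, was close to the threshold (log2 fold change -0.26, edgeR adjusted p = 0.0507). The 978-transcript block held WDHD1, NOL10, DDX31 and RPS27L, and its score lay at 6.43 to 6.55 log2 CPM in control libraries and 6.14 to 6.42 in the libraries labelled bmp4 RNAi. With that score in the fit none of SPICE1, ERCC5, WDHD1, NOL10, DDX31 and NVL was called, and WDHD1 went to -0.08 and DDX31 to -0.06. The score includes the values of its own members and did not overlap between the groups, so part of this shrinkage was built in. The WDHD1 call was also lost without control replicate 1 or treated replicate 2, 3 or 5, that of DDX31 without these or control replicate 5, and that of ERCC5 without any library other than control replicate 2 or treated replicate 1 or 4.

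The remaining lists were mixed. The metabolism list had BCKDHA and the peroxisomal oxidase HAO1 (log2 fold change -0.46, edgeR adjusted p = 0.000342) lower among 10 tested members. Solute carriers were split, with 2 of 17 higher and 2 lower, SLC26A5 and the bile acid carrier SLC10A2 (-0.43). Both higher calls were among 3 tested SLC16A4 matches, and the one at 0.55 (dd_Smed_v6_10629_0_1) lost its call with the first block score (log2 fold change 0.30, edgeR adjusted p = 0.115). Among 13 TRAF adaptors and cell death proteins, a TRAF4 match (dd_Smed_v6_10539_0_1) was at 0.47 and the survival factor BCL2L1 at -0.18, and neither call outlasted the first block score. The TRAF4 call was also lost without control replicate 1 or 5 or treated replicate 1 or 2, and that of BCL2L1 without control replicate 1 or 2 or treated replicate 2 or 3. HSPB1 alone was called among 11 chaperone and ubiquitin transcripts. The tubulin and actin list had 1 tested member of 17 annotated, CFL1, at 0.059, and the transposon-derived list 2 of 26, GTF2IRD2B and SETMAR (-0.20).

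Wound-induced transcripts were followed through groups defined on other libraries. In control libraries 298 transcripts rose at least 2-fold and were called from 0 to 6 hpa (1.61% of those tested), and 220 fell (1.19%). From 0 to 48 hpa 552 rose (2.98%) and 577 fell (3.12%). None of the 10 libraries at 16 hpa took part in this choice, although all libraries shared the estimate of spread. The choice used control libraries alone, so a transcript that rose or fell only in the libraries labelled bmp4 RNAi could not enter. That can by itself lean the rising groups to lower and the falling groups to higher values in treated libraries. The groups overlap, since 142 transcripts rose in both spans (47.7% of the early and 25.7% of the late group).

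At 16 hpa the early-rising group was lower in the treated libraries. Of its 298 members 115 were lower (38.6%) and 27 higher (9.06%), and the median log2 fold change was -0.37. A value below 0 was found for 226 of them (75.8%, against 47.9% of all transcripts). The mean log2 CPM of the group was 2.74, 2.80, 2.56, 2.81 and 2.75 in control libraries and 2.31, 2.35, 2.36, 2.32 and 2.35 in treated libraries. Treated libraries lay close together below the lowest control library, which was replicate 3. Named members that were lower were COLEC10, CAV3, ADAMTS20, WDHD1 and NOTCH1, whose values are given above, and TRAF2, at -0.29, was not called (edgeR adjusted p = 0.0835). HSPB1 and GTF2IRD2B belonged to the same group and were higher. At 0 hpa COLEC10, CAV3 and ADAMTS20 were already lower (-1.81, -1.73 and -0.26), and HSPB1 and GTF2IRD2B already higher (0.76 and 0.50). WDHD1 (-0.23) and NOTCH1 (0.22) were not called at 0 hpa. None of the groups was compared as a whole at 0 hpa, so how much of their differences preceded the wound was not tested. Transcripts that fell from 0 to 6 hpa had 17 lower calls (7.73%) and 18 higher calls (8.18%). Both shares were below those of all transcripts (9.56% lower and 9.68% higher), but these transcripts were less abundant. Their median control level was 0.735 CPM, against 9.54 CPM over all transcripts and 4.42 CPM in the early-rising group. The late-rising and late-falling groups were at 3.08 and 2.43 CPM. Low counts give fewer calls, so these shares are not directly comparable. The median log2 fold change of the early-falling group was 0.14, and 35.9% of its members lay below 0. Its higher calls numbered 11 without control replicate 4 or treated replicate 3, and 9 with the first block score.

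The late-rising group also held more lower than higher members, with a median nearer to 0. Of its 552 members 128 were lower (23.2%) and 25 higher (4.53%), with a median log2 fold change of -0.14. The higher calls numbered 16 without treated replicate 3 and 38 with only the 10 libraries fitted. Its mean log2 CPM was 2.00 to 2.14 in control libraries and 1.83 to 1.91 in the libraries labelled bmp4 RNAi, without overlap. Among members not in the early group were LRP3, a lipoprotein receptor-related protein that was lower (log2 fold change -0.26, edgeR adjusted p = 0.0223), and, among those not called, the mitotic regulator CDC20 (0.19) and the forkhead factor FOXA1 (0.21). The 577 transcripts that fell from 0 to 48 hpa leaned the opposite way, with 82 higher (14.2%), 51 lower (8.84%) and a median of 0.19, and BCKDHA, COL2A1 and SPARCL1 were among those lower. The count of higher calls depended on the fit. Leaving out control replicate 2 or 4 left 51, and the score of the second block left 49 and a median of 0.04.

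**Figure D4:**
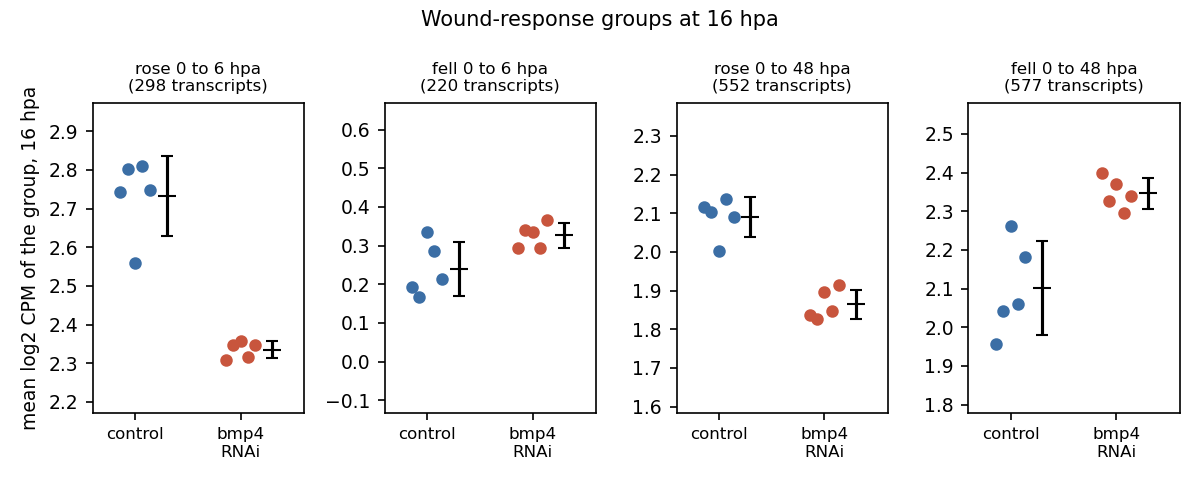
Mean log2 CPM of 4 wound-response groups in each library at 16 hpa, control in blue and labelled bmp4 RNAi in red, with the mean ± SD (n = 5). Each panel spans the same height of 0.8 log2 units. The group that rose from 0 to 6 hpa in control libraries lies at 2.56 to 2.81 in control and 2.31 to 2.36 in the treated libraries.

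How far the differences at 16 hpa were already there before or shortly after the cut was asked next, from the other times, which share no libraries with 16 hpa. The other times had called 11.4%, 11.3%, 17.1%, 16.7% and 35.9% of transcripts (0, 3, 6, 24 and 48 hpa). The calls of 16 hpa shared 1233 transcripts of equal sign with 0 hpa, which is 34.6% of the 3560 and 58.4% of the list at 0 hpa. This number was 1641 for 6 hpa (46.1% and 51.8%) and 1328 for 24 hpa (37.3% and 42.9%). Opposite signs were rare at 0, 6 and 24 hpa (9, 10 and 40 transcripts) and more common at 48 hpa, with 318 against 1412 of the same sign.

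Of the 12 named falls, 11 were called with the same sign at 0 hpa, and 7 at all 5 other times: BCKDHA, OVOL1, CAV3, CTNNAL1, UNC5C, ABCA1 and ADAMTS20. The BCKDHA match was at -5.52 at 0 hpa and between -4.98 and -5.69 afterwards. OVOL1 ranged from -1.75 at 3 hpa to -2.78 at 48 hpa. Among the 12 named rises, 8 were called at 0 hpa and 3 at all other times, namely C1GALT1, GALNT1 and CYP2C18. CA11 among the falls and CALM3, ARAP2, NLRP13 and LMLN among the rises were not called at 0 hpa, and the last 3 of these were called at 16 hpa alone.

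Whether the difference at 16 hpa itself differed from that at another time was tested as the RNAi difference at 16 hpa minus that at the other time. These 3 contrasts share the libraries at 16 hpa with each other and with the main comparison. Against 0 hpa edgeR called 142 transcripts (0.767% of those tested), 67 more positive (0.362%) and 75 more negative (0.405%) at 16 hpa. Against 6 hpa it called 95 (0.513%), 52 more positive (0.281%) and 43 more negative (0.232%). Against 24 hpa it called 609 (3.29%), 214 more positive (1.16%) and 395 more negative (2.13%). An unadjusted p under 0.05 was found for 10.5%, 9.76% and 20.5% of transcripts in these contrasts. Without replicate 5 of the treated libraries the last count was 362, and without replicate 3 it was 372. Without replicate 2 the count against 0 hpa was 91. Although 1009 transcripts were called at 16 hpa and at no other time (28.3% of the calls), all 3 differences were called for 7 of them, all higher in the libraries labelled bmp4 RNAi and with LMLN as the only one named.

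LMLN was higher at 16 hpa only, with log2 fold changes of 0.12, -0.28, 0.17, 0.97, -0.10 and -0.26 from 0 to 48 hpa. The difference between times was 0.86 against 0 hpa, 0.81 against 6 hpa and 1.07 against 24 hpa (edgeR adjusted p = 0.0106, 0.0172 and 0.000162). The LMLN difference against 6 hpa lost its call without treated replicate 3 (edgeR adjusted p = 0.05), and without replicate 3 of both groups the differences against 0 and 6 hpa did (0.0604 and 0.107). GTF2IRD2B was higher at 0, 3 and 48 hpa as well but not at 6 and 24 hpa, where it was at 0.23 and -0.12, and its difference was 0.88 against 6 hpa and 1.23 against 24 hpa (SE 0.211 and 0.208). The GTF2IRD2B difference against 6 hpa was not called without control replicate 2 or 3 or treated replicate 1 or 4 (edgeR adjusted p = 0.0793, 0.0725, 0.0853 and 0.0675). FTH1 was lower at 0, 16 and 48 hpa and at -0.14 and -0.04 at 6 and 24 hpa, with differences of -0.67 and -0.76 (edgeR adjusted p = 0.00147 and 7.51e-05). PAX5 was lower at 16 hpa, at 0.14 and 0.19 at 6 and 24 hpa, and higher at 48 hpa (0.39), and its differences were -0.70 and -0.75 (edgeR adjusted p = 0.0398 and 0.00684).

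FOXRED1, a mitochondrial oxidoreductase, was lower at 16 hpa and higher at 24 hpa. It measured 10.2, 10.3, 14.8, 8.13 and 9.41 CPM in control and 8.14, 6.35, 7.31, 7.25 and 6.41 CPM in treated libraries of 16 hpa (log2 fold change -0.57, SE 0.153), and was at 0.73 at 24 hpa, a difference of -1.29 (edgeR adjusted p = 7.51e-05). Against 6 hpa the difference was -0.94, and this call was lost without control replicate 3, the highest library (edgeR adjusted p = 0.0651). The MIB2 match, named for a further Notch pathway ubiquitin ligase, was annotated chiefly with RING-type domains. It was at 0.14 at 16 hpa, not called, and at 1.63 at 24 hpa, a difference of -1.49 (edgeR adjusted p = 0.00604). The F-box protein FBXL7 was lower at 0 hpa (-0.55) and at 0.17 at 16 hpa, a difference of 0.72. FAM221A was higher at 0 hpa (0.41) and at -0.29 at 16 hpa, a difference of -0.70, and neither was called at 16 hpa itself. The FAM221A difference lost its call without control replicate 1 or 2 or treated replicate 2 (edgeR adjusted p = 0.0574, 0.06 and 0.0617). ADAMTS20 and NOTCH1 were more negative at 16 than at 0 hpa, by -0.52 and -0.48 (edgeR adjusted p = 0.0134 and 0.0345).

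**Figure D5:**
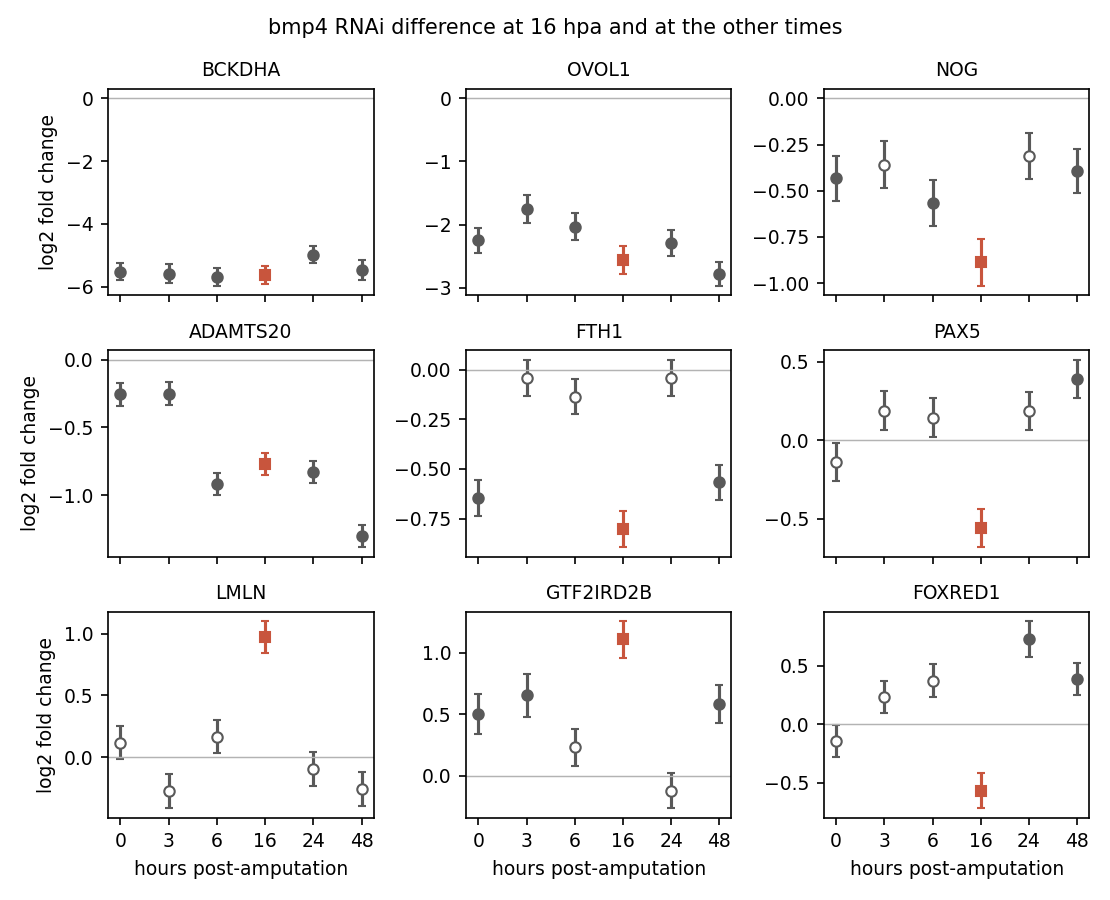
RNAi difference (log2 fold change of the libraries labelled bmp4 RNAi against control) of 9 named transcripts at 6 times, with 16 hpa as a red square. Filled symbols were called by edgeR and bars are ± 1 SE. The axes differ between panels. BCKDHA and OVOL1 are low at every time, whereas LMLN is near 0 at all times but 16 hpa, where it is at 0.97.

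For equinox the difference at 16 hpa was not distinguishable from that at 0, 6 or 24 hpa (0.15, 0.23 and 0.24, edgeR adjusted p = 0.847, 0.761 and 0.526). NOG had its lowest value at 16 hpa, at -0.89 against -0.43 at 0 hpa and -0.31 at 24 hpa, but the differences of -0.45 and -0.58 did not pass the threshold (edgeR adjusted p = 0.298 and 0.0578).

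Over all transcripts the largest falls and rises with separate ranges had no name in the annotation used. The transcript dd_Smed_v6_1028_0_1 held 3.19, 2.86, 0.766, 9.88 and 5.03 CPM in control libraries and no read in any treated library. A count of 0 allows up to 3 counts over the group, or 0.0359 CPM. Set against that limit, the transcript was at least 121-fold below the mean of the control libraries. This leaves out the spread between control libraries, which ran from 0.766 to 9.88 CPM. The transcript dd_Smed_v6_135_0_1 fell from 125, 44.0, 78.8, 128 and 116 CPM to 0.416, 0.851, 0.225, 0.374 and 0.192 CPM (log2 fold change -7.89, SE 0.467, edgeR adjusted p = 6.09e-19). Its loss was complete to below 1 CPM in all 5 treated libraries.

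The largest rise, that of dd_Smed_v6_531_0_1, was from 0.39, 0.365, 25.4, 0.945 and 0.162 CPM to 261, 119, 239, 62.8 and 106 CPM, with control replicate 3 far above the other controls (log2 fold change 4.84, SE 1.54, edgeR adjusted p = 0.0221). Without control replicate 3 the log2 fold change of dd_Smed_v6_531_0_1 was 8.32, and without control replicate 1, 2, 4 or 5 it was not called (edgeR adjusted p = 0.0567, 0.0532, 0.0587 and 0.0567). The next, dd_Smed_v6_35227_0_1, had 3 counts in all control libraries together and 93 in the libraries labelled bmp4 RNAi, a ratio of 33.3 after scaling to library size (95% exact interval 11.0 to 164, counting error only). A second block of 69 transcripts that varied together within groups had a score of 2.56 to 4.34 log2 CPM in control libraries and 4.73 to 5.34 in the libraries labelled bmp4 RNAi. Control replicate 3 was the highest control library here too. Of the members 26 (37.7%) were called, all higher, where 9.68% of all transcripts were called higher. The score did not overlap between control and treated libraries, so a fit with it also removes part of their difference. With the score of this block in the fit, a choice made after seeing the data, neither rise was called, at log2 fold changes of 1.52 and 2.40 (edgeR adjusted p = 0.325 and 0.0763).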

How the data were processed

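RNA was measured in 60 libraries (12 groups of 5), of which the 10 at 16 hpa are compared here. The authors deposited raw counts per transcript. Their processing notes name CASAVA 1.9, cutadapt 1.8, Bowtie 1.2, SAMtools 1.6 and DESeq, and their methods describe alignment to the dd_Smed_v6 transcriptome with Bowtie's best-alignment option and counts of related isotigs summed. Strand and the treatment of reads with equally good matches are not given in the sources used here, so near-identical or antisense transcripts are uncertain.

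All 60 libraries were fitted together in edgeR 4.0.16 (R 4.3.3, limma 3.58.1) with TMM factors, filterByExpr (minimum count 10, minimum total 15), robust quasi-likelihood tests and Benjamini-Hochberg adjustment over all 18510 transcripts tested, at a threshold of 0.05. These hold 99.91% of counts. Of 28742 transcripts in the table, 28513 had any count. The biological coefficient of variation was 12.51%. Exact permutation tests (SciPy 1.17.1, pseudocount 1) were made for bmp4 and equinox. Totals of 13.3 to 21.7 M per library set the counting precision, and the interval and limit given for low counts cover counting error only. The script was tested on simulated data.

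Named transcripts were bmp4 and equinox, the 12 lowest and 12 highest called homologue-named transcripts with separate ranges, up to 3 called members of each list with the largest change (the member with the smallest p where none was called), the 2 largest rises and 2 largest falls of any transcript with separate ranges, and the 3 largest homologue-named differences for each pair of times. Others named were chosen after their values were seen. Some list members are counted but not reported here by name. Homologue names come from the study's annotation, which lists 1200 transcripts in the copy used and names 748. The members, lists and tests were chosen with earlier results of these data known. The first and second blocks come from the first and second main axes of variation (singular value decomposition) of deviations from group means, over all 60 libraries. Each block holds the transcripts whose deviations correlated above 0.8 with its axis, of the sign with more such transcripts. Alternatives covered the libraries fitted, scaling, filter, block scores, replicate block, DESeq2 1.42.0, a fold threshold, pseudocount and leaving out each library. The libraries were not treated as pairs by replicate number, because the labels do not say that same-numbered pools belong together.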

Additional observations from a re-analysis of the deposited data

Results flagged for a closer look

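Among sets of 5 libraries, 2 of 125 (1.6%) held a library apart from the rest of its group, where chance gives about 5 percent. MIB1 was at 7.48 CPM in control replicate 2, against 9.69 to 10.4 CPM in the other control libraries. The transcript dd_Smed_v6_531_0_1 was at 25.4 CPM in control replicate 3, against 0.162 to 0.945 CPM in the other controls.

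The other 18 results are RNAi differences (log2 fold changes) that differed between 16 hpa and another time by edgeR's test. More negative at 16 hpa were FTH1, by -0.67 against 6 hpa and -0.76 against 24 hpa, PAX5, by -0.70 and -0.75, and FOXRED1, by -0.94 and -1.29. ADAMTS20 (-0.52) and NOTCH1 (-0.48) were more negative than at 0 hpa, WFIKKN2 (-0.51) and MIB2 (-1.49) than at 24 hpa, and FAM221A than at 0 hpa (-0.70) and 24 hpa (-0.68). More positive at 16 hpa were LMLN, by 0.86, 0.81 and 1.07 against 0, 6 and 24 hpa, GTF2IRD2B, by 0.88 and 1.23 against 6 and 24 hpa, and FBXL7, by 0.72 against 0 hpa.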

How the results depend on the processing

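The count of 3560 calls at 16 hpa stayed within 1.5 times under every alternative but the 2-fold threshold (440). The labels do not say that same-numbered libraries were handled together. Correlations of their deviations were -0.02 to 0.10, which does not settle whether they form pairs. The count was 3492 with the replicate block, 3758 in DESeq2, 4879 with only the 10 libraries, 2995 without the filter and 2378 with the first block score. Calls of the difference between 16 and 0 hpa (142) were 235 with the first block score, 36 at 2-fold, and 91 to 144 with a library left out. Those between 16 and 6 hpa (95) were 221, 26 and, without replicate 3 of both groups, 60. Those between 16 and 24 hpa (609) were 934 in the 20 libraries of both times, 104 at 2-fold, 373 without replicate 3 of both groups, and 362 to 752 with a library left out.

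The log2 fold change of bmp4 was -0.69 to 0.69 with a library left out and -0.78 without replicate 3 of both groups. On the log2(CPM + 1) scale its difference was -0.74 to 0.16, above 0 without treated replicate 1 or 2. The equinox difference of -1.57 had an exact adjusted p of 0.125 in the paired test by replicate block, where the smallest p is 0.0625. Without replicate 3 of both groups it was -1.55, with an exact p of 0.0286, the smallest that 4 against 4 libraries allow. With bmp4 at an exact p of 0.257, adjustment over the 2 tests gave 0.0571, which could not have been lower. With the second block score CFL1 (-0.017) and MIB2 (-0.018) changed sign, and CFL1 was at -0.0093 to 0.14 with a library left out. The cause was not tested. Alternatives without replicate 3 of both groups or with the second block score were chosen after seeing the data. Fewer libraries leave fewer counts for the test and fewer splits for the exact test.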
